A study of Mus musculus with 18 samples.

Results

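The genes described here make or recover nucleotides. They are 10 genes chosen by symbol: Adssl1, Adsl, Ampd2, Ampd3, Hprt, Aprt and Impdh2 of purine metabolism and Uprt, Uck2 and Umps of pyrimidine metabolism. Adssl1 and Uprt were taken because the signal of Adssl1 was higher and that of Uprt lower in invading fibroblasts, so their ratios between the fractions are given as a description without a test. Of the 10 genes, 9 have a probe set with exactly 1 gene symbol, and they stand among 19938 genes measured in this way. Impdh2, which makes XMP from IMP and opens the way to GMP, has no such probe set in the annotation used and was not analysed here. For each gene the value is that of its brightest probe set. RNA was measured in MLg 2908 cells, an established fibroblast line from the lung of a newborn WT mouse of the strain ddY, all of 1 line and of undetermined gender. The cells were plated on a collagen gel and separated into an invading fraction, found inside the gel, and a non-invading fraction, left on top. The 4 groups are invading and non-invading cells after 72 hours (n = 4 each) and invading and non-invading cells after 96 hours (n = 5 each). The treatment entry of all 18 samples mentions TGFB1 beside the assay while the titles name no agent, and the legend of the study marks these arrays as non-treated, so the sources used here differ on whether the cells received it. The values are background-corrected, normalised gene-level signals on a log2 scale, where a difference of 1 is a ratio of 2. They were compared with limma, and a difference passed the test at an adjusted p under 0.10, where p-values were adjusted by the Benjamini-Hochberg method across the 35556 probe sets on the array.

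Cells build purine nucleotides either step by step on phosphoribosyl pyrophosphate (PRPP) up to IMP, or by salvage, in which a phosphoribosyltransferase joins a free base to PRPP. From IMP, adenylosuccinate synthetase and then adenylosuccinate lyase make AMP, and AMP deaminase returns AMP to IMP. These 3 reactions form the purine nucleotide cycle, which is best known from skeletal muscle. Pyrimidines are made de novo up to UMP or are salvaged from uridine, cytidine and uracil.

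Medians of the log2 signal lay between 6.46 and 6.65 over the 18 arrays, and samples of 1 group correlated at 0.991 to 0.996. The medians were lower in invading than in non-invading arrays at each time. They ran from 6.504 to 6.526 against 6.54 to 6.647 at 72 hours, and from 6.462 to 6.536 against 6.577 to 6.6425 at 96 hours. No 2 arrays held identical values, and precision is limited by how many arrays there are. Of 10 fibroblast markers 9 had a mean linear signal above 100 in every group, the exception being Thy1. Krt8, of epithelium, Cd68, of macrophages, and Acta1, Tnnt3, Ckm and Mb, of striated muscle, also lay above that level over all samples. The other epithelial, endothelial and leukocyte markers, among them Epcam, Cdh1, Pecam1, Cdh5 and Ptprc, lay below it. In such bulk samples, fewer cells of a type and less RNA per cell cannot be told apart.

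To show what lies before the start sites of Adssl1 and Uprt, and of Adss, the isozyme of Adssl1 found in most tissues, the 250 bases before each RefSeq start are printed here (GRCm38.p6, 5′ to 3′ on the strand of the gene). Capitals mark a GC box (GGGCGG or its reverse, CCGCCC), bound by Sp1-type factors, or an AP-1 element (TGACTCA or its reverse, TGAGTCA), bound by Fos and Jun.
Adssl1, chr12:112619797-112620046, plus strand: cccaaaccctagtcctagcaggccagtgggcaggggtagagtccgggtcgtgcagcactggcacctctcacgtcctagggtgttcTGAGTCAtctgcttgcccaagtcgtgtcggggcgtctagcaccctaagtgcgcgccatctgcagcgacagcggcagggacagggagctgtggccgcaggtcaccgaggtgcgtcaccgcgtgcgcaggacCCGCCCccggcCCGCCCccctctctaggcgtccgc
Uprt, chrX:104482553-104482802, plus strand: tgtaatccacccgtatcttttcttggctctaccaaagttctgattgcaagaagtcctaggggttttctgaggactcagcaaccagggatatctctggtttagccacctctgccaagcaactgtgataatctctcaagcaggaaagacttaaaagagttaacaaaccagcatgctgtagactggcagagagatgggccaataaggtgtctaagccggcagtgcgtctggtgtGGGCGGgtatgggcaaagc
Adss, chr1:177796510-177796759, minus strand: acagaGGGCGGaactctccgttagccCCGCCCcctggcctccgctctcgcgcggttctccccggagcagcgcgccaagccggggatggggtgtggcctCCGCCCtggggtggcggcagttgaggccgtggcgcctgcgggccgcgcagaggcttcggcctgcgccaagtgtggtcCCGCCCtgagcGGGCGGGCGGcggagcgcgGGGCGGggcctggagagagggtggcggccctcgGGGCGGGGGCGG
The window of Adssl1 is 68.4% G and C and holds 2 GC boxes and 1 AP-1 element, this element lying 165 to 159 bases before the start. Uprt has 48.8% G and C with 1 GC box, at 19 to 14 bases before the start, and Adss has 78.8% with 9 GC boxes, some of which overlap. All 10 genes matched the RefSeq table, with 13 windows because Ampd2 and Ampd3 have several starts. A GC box occurs in 9 of the 13 windows, against 32.7% of 32851 windows of the same length searched on both strands. An AP-1 element occurs in 2, those of Adssl1 and Aprt, against 4.46% of windows, and an E-box (CACGTG) in 2, against 6.02%. The motifs were chosen with the matches in view, and a match is not evidence of binding.

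Adssl1 encodes the adenylosuccinate synthetase isozyme that is most abundant in striated muscle. At 72 hours its log2 signal was 8.56, 8.53, 8.05 and 7.93 in the invading samples, against 7.31, 7.08, 6.94 and 6.93 in the non-invading samples. After 96 hours the signals were 8.92, 8.08, 8.21, 8.57 and 8.59 in the invading samples, against 7.61, 6.52, 6.998, 6.99 and 7.06 in the non-invading samples. Every invading sample lay above every non-invading sample of its time. The ratio was 2.30 at 72 hours (log2 1.204, standard error 0.158) and 2.71 at 96 hours (log2 1.44, standard error 0.198). Among 19938 genes these were the 13th and the 11th highest ratios. Ordered by mean, the groups ran 8.47 ± 0.33 in invading cells at 96 hours, 8.27 ± 0.32 in invading cells at 72 hours, 7.06 ± 0.18 in non-invading cells at 72 hours and 7.03 ± 0.39 in non-invading cells at 96 hours (SD, n = 4 at 72 hours and n = 5 at 96 hours). The neighbours of 1 fraction in this order did not differ beyond their spread, with a log2 difference between 96 and 72 hours of 0.21 in invading cells (adjusted p = 0.50) and -0.03 in non-invading cells (adjusted p = 0.94).

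Uprt encodes the mammalian homolog of uracil phosphoribosyltransferase, which in microbes makes UMP from uracil and PRPP. At 72 hours its log2 signal was 8.92, 8.89, 8.99 and 8.33 in the invading samples, against 10.69, 10.57, 10.88 and 10.92 in the non-invading samples. For 96 hours the signals were 9.54, 9.33, 9.22, 9.30 and 8.98 in the invading samples, against 10.82, 10.96, 11.01, 11.18 and 11.34 in the non-invading samples. All invading samples lay below all non-invading samples, also across the 2 times. The ratio was 0.253 at 72 hours (log2 -1.98, standard error 0.149) and 0.290 at 96 hours (log2 -1.79, standard error 0.116), the 3rd and the 9th lowest of all genes. A second, dimmer probe set of Uprt gave log2 ratios of -1.54 at 72 hours and -1.52 at 96 hours. Between the times, Uprt rose in invading cells by 0.49 at 96 hours relative to 72 hours (standard error 0.139, adjusted p = 0.015). However, 1 of the 96-hour samples lay within the range of the 72-hour samples. With each sample left out in turn the rise was 0.34 to 0.56, with adjusted p up to 0.065. The gene was chosen on the ratio between the fractions and not on this difference, but both use the same invading values. In non-invading cells the difference of 0.29 missed the threshold (adjusted p = 0.16). With the second probe set it passed in both fractions, at 0.52 in invading cells (adjusted p = 0.0020) and 0.50 in non-invading cells (adjusted p = 0.0034).

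**Figure D1:**
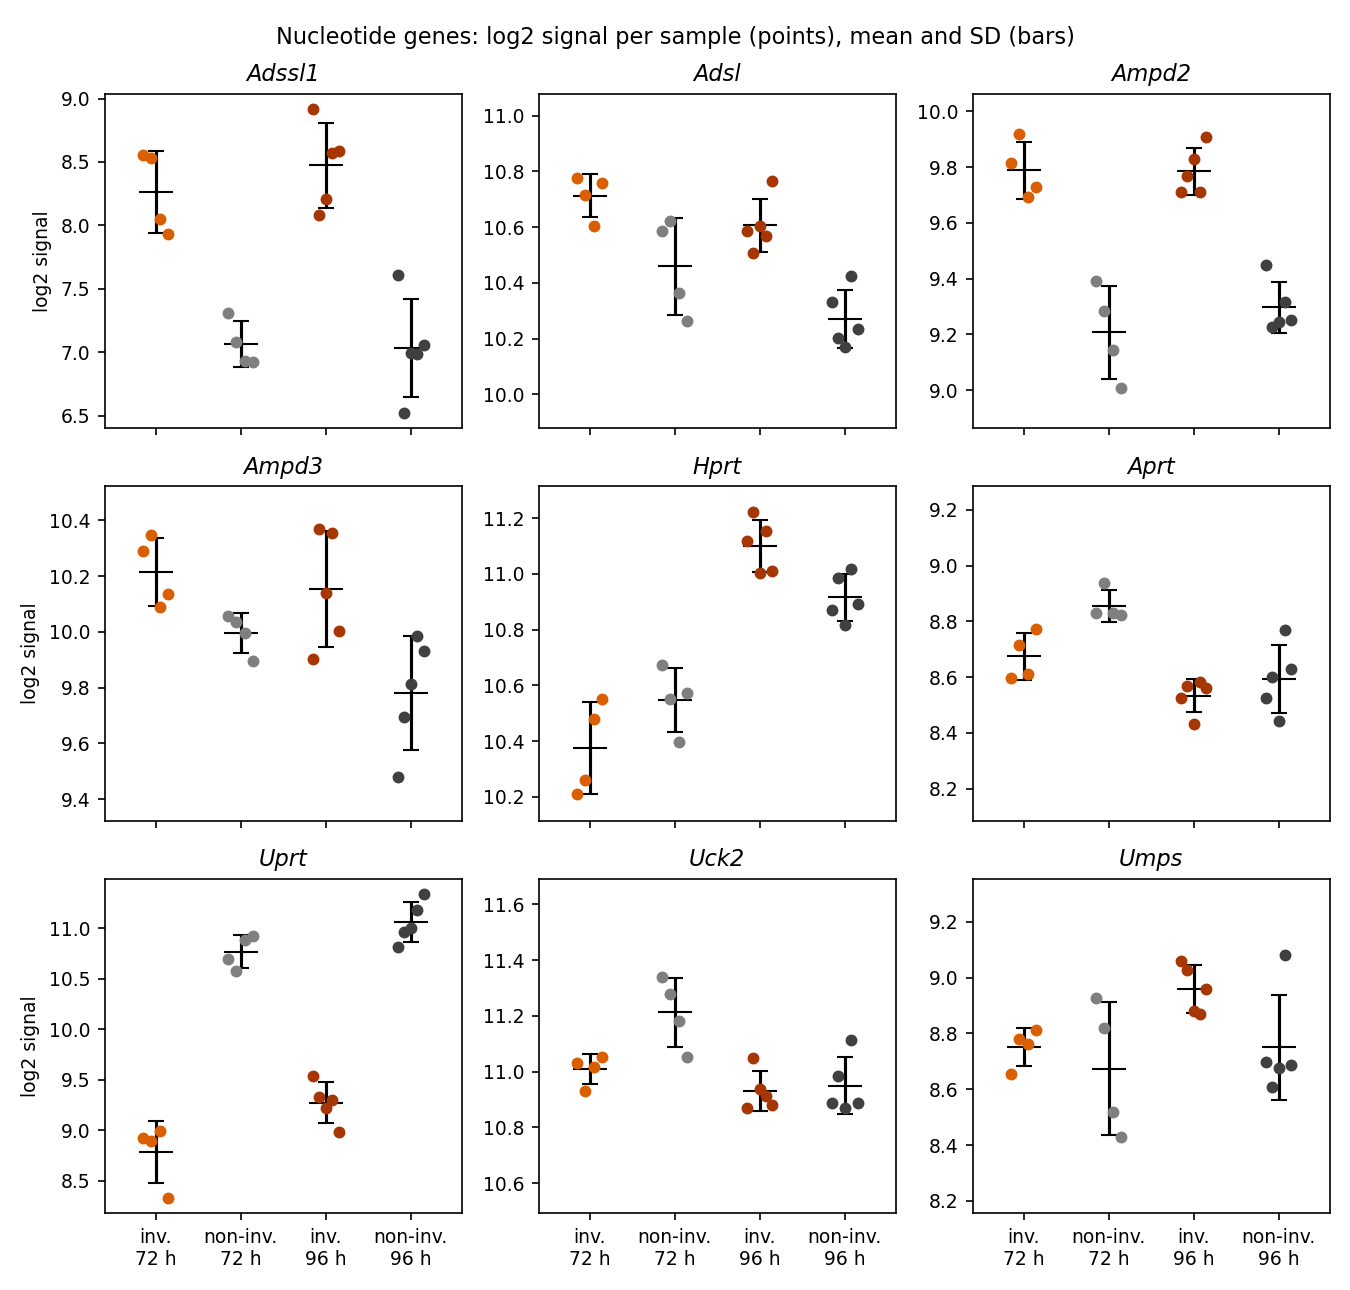
Log2 signal of the 9 measured genes in each of the 18 samples (points) with the mean and SD of each group (bars). Each panel has its own axis range, so heights are not compared between genes. For Adssl1 and Uprt, chosen for this difference, the fractions stand fully apart at both times, and so they do for Ampd2. For Adsl they stand apart at 96 hours only, whereas for Ampd3, Hprt, Aprt, Uck2 and Umps they overlap at 96 hours. Over all genes the fractions did not overlap for 24.8% at 72 hours and 18.2% at 96 hours.

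Among the partners of Adssl1 in the purine nucleotide cycle, Ampd2, Adsl and Ampd3 passed as higher in the invading fraction at both times, although the calls of Adsl and Ampd3 at 72 hours were each lost when any 1 of 5 of the 8 samples was left out. Ampd2, the AMP deaminase found in most tissues, had log2 signals at 72 hours of 9.82, 9.92, 9.69 and 9.73 in invading samples, against 9.39, 9.29, 9.14 and 9.01 in non-invading samples. Its signals after 96 hours were 9.71, 9.77, 9.83, 9.71 and 9.91 in invading samples, against 9.45, 9.23, 9.25, 9.32 and 9.25 in non-invading samples. The fractions did not overlap at either time. Ampd2 rose by 0.58 at 72 hours (standard error 0.0951, adjusted p = 0.0038, ratio 1.497) and by 0.49 at 96 hours (standard error 0.0612, adjusted p = 0.00027, ratio 1.40). This call held when each sample was left out in turn.

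Adsl, adenylosuccinate lyase, acts after Adssl1 and also at an earlier step of de novo purine synthesis. It had log2 signals at 72 hours of 10.78, 10.71, 10.60 and 10.76 in invading samples, against 10.59, 10.62, 10.37 and 10.26 in non-invading samples. The fractions overlapped by 1 sample on each side, and the difference of 0.25 passed narrowly (standard error 0.0931, adjusted p = 0.088). At 96 hours the signals were 10.59, 10.51, 10.60, 10.57 and 10.77 in invading samples, against 10.33, 10.20, 10.17, 10.42 and 10.24 in non-invading samples. Here the fractions did not overlap, and Adsl rose by 0.33 (standard error 0.0668, adjusted p = 0.0036).

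Ampd3, the AMP deaminase first known from red blood cells, had log2 signals at 72 hours of 10.29, 10.35, 10.09 and 10.14 in invading samples, against 10.06, 10.03, 9.996 and 9.90 in non-invading samples. These ranges did not overlap, and the difference was 0.22 (standard error 0.0777, adjusted p = 0.078). At 96 hours the signals spread more widely, with 9.90, 10.37, 10.14, 10.35 and 10.002 in invading samples, against 9.48, 9.70, 9.81, 9.99 and 9.93 in non-invading samples. The ranges overlapped, and Ampd3 rose by 0.37 (standard error 0.117, adjusted p = 0.036).

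Both salvage enzymes of purine bases differed little between the fractions. Hprt joins hypoxanthine or guanine to PRPP and is often used as a reference gene in qRT-PCR. At 72 hours its log2 signal was 10.21, 10.26, 10.48 and 10.55 in invading samples, against 10.67, 10.55, 10.40 and 10.57 in non-invading samples, a difference of -0.17 that did not pass (95% interval -0.391 to 0.0466, adjusted p = 0.25). At 96 hours it was 11.12, 11.22, 11.002, 11.15 and 11.01 in invading samples, against 10.87, 10.98, 10.82, 11.02 and 10.89 in non-invading samples. The ranges overlapped slightly, and Hprt rose by 0.185 (standard error 0.0618, adjusted p = 0.046).

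Aprt, which joins adenine to PRPP, had log2 signals at 72 hours of 8.596, 8.72, 8.61 and 8.77 in invading samples, against 8.83, 8.94, 8.83 and 8.82 in non-invading samples. The invading samples lay below the others, with a difference of -0.18 (standard error 0.0666, adjusted p = 0.089). After 96 hours the signals were 8.53, 8.57, 8.43, 8.58 and 8.56 in invading samples, against 8.53, 8.601, 8.44, 8.77 and 8.63 in non-invading samples. These overlapped almost fully, and the difference of -0.06 did not pass (95% interval -0.202 to 0.0828, adjusted p = 0.54). Centring each array on its median turned it to 0.059. The RefSeq table also lists a pseudogene, Aprt-ps, so that the signal of Aprt may be shared.

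Among the other pyrimidine genes, Uck2, the kinase that makes UMP and CMP from uridine and cytidine, had log2 signals at 72 hours of 11.03, 10.93, 11.02 and 11.05 in invading samples, against 11.34, 11.28, 11.18 and 11.05 in non-invading samples. The lowest non-invading sample reached the range of the invading samples, and the difference was -0.20 (standard error 0.0759, adjusted p = 0.092). A second, much dimmer probe set of Uck2 passed in the opposite direction, at 0.25 (standard error 0.0881, adjusted p = 0.077), so the 2 probe sets disagree in direction. At 96 hours the signals of the brighter probe set were 10.87, 11.05, 10.94, 10.91 and 10.88 in invading samples, against 10.89, 10.99, 10.87, 11.11 and 10.89 in non-invading samples. They overlapped, with a difference of -0.02 (95% interval -0.154 to 0.117, adjusted p = 0.86) that turned to 0.10 when arrays were centred on their medians.

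Umps carries out the last steps of de novo UMP synthesis. Its log2 signals at 72 hours were 8.65, 8.78, 8.76 and 8.81 in invading samples, against 8.93, 8.82, 8.52 and 8.43 in non-invading samples, which spanned the invading range on both sides. The difference of 0.08 did not pass (95% interval -0.178 to 0.333, adjusted p = 0.68). After 96 hours the signals were 9.06, 9.03, 8.88, 8.87 and 8.96 in invading samples, against 8.70, 8.61, 8.68, 9.08 and 8.69 in non-invading samples. The 4th non-invading sample alone lay above all invading samples. The difference of 0.21 just missed the threshold (standard error 0.0879, adjusted p = 0.103), and without that sample it was 0.29 and passed (adjusted p = 0.0045).

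**Figure D2:**
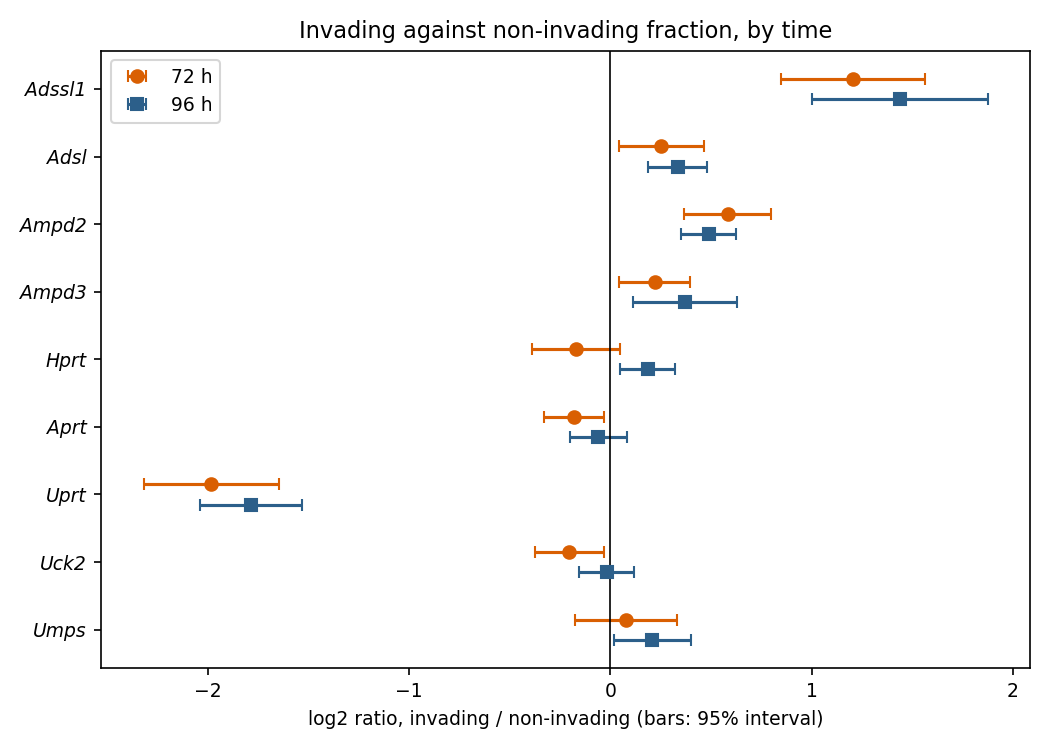
Log2 ratio between the fractions, invading over non-invading, for each gene at 72 hours (circles) and 96 hours (squares), with 95% intervals from the fit at each time. The ratios of Adssl1 (1.204 and 1.44) and Uprt (-1.98 and -1.79) chose these genes and are shown as a description. Their sizes are therefore not compared with those of the other 7, which lie between -0.20 and 0.58.

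Leaving Adssl1 and Uprt aside, 5 of the other 7 genes passed at 72 hours, 3 higher (Adsl, Ampd2 and Ampd3) and 2 lower (Aprt and the brighter probe set of Uck2), beside 26.5% of all genes. At 96 hours 4 of 7 passed, Adsl, Ampd2, Ampd3 and Hprt, all of them higher, beside 31.4% of all genes, 16.7% being higher. The groups did not overlap for 3 of the 7 at 72 hours, 2 with invading samples above and 1 with them below, beside 24.8% of all genes (12.5% above and 12.3% below). At 96 hours they did not overlap for 2 of the 7, both above, beside 18.2% of all genes (9.35% above and 8.80% below). The median log2 ratio of the 7 was 0.08 at 72 hours and 0.21 at 96 hours, against 0.04 and 0.02 over all genes. Both counts are small, and that at 72 hours was not stable: it was 1 to 3 whenever any sample was left out, 3 higher and 1 lower after quantile normalisation was applied again, and 3 higher and 0 lower with arrays centred on their medians. Leaving out 1 sample at a time, Adsl and Ampd3 lost their calls at 72 hours for 5 of the 8 samples and Aprt and Uck2 for 7 of the 8, with adjusted p up to 0.19 for Adsl and 0.20 for Aprt, whereas Ampd2 kept its call throughout. Centring moved the median ratio of all genes by 0.08 at 72 hours and by 0.12 at 96 hours. The test of whether the ratio differed between the times passed for 0 of the 7 genes with limma, with 1 gene, Hprt, at an unadjusted p under 0.05, while 0.0150% of all genes passed. The difference for Hprt was 0.36 (standard error 0.11, adjusted p = 0.35).

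No gene was chosen on the comparison of 96 with 72 hours within a fraction, and all 9 were tested. For Adssl1 and Uprt this comparison shares its values with the ratios that chose them. The labels name no array batch, so time and batch cannot be told apart. Hprt changed most. It rose in invading cells by 0.73 at 96 hours relative to 72 hours (standard error 0.0781, adjusted p = 4.4e-06) and in non-invading cells by 0.37 (standard error 0.0781, adjusted p = 0.0030). In both fractions every 96-hour sample lay above every 72-hour sample. Aprt and the brighter probe set of Uck2 fell in non-invading cells, by 0.26 each (adjusted p = 0.0071 and 0.0088), with smaller differences in invading cells of -0.14 (adjusted p = 0.12) and -0.08 (adjusted p = 0.43). The second probe set of Uck2 fell in both fractions, by 0.57 in invading and 0.49 in non-invading cells. In non-invading cells this fall, like the rise of 0.50 with the second probe set of Uprt, was larger than the change of Hprt. Hprt and Uprt were the 2 of 9 genes that passed in invading cells, both higher, beside 34.8% of all genes (18.2% higher and 16.7% lower). In non-invading cells 3 of 9 passed, 1 higher and 2 lower, beside 27.6% (15.4% higher and 12.2% lower). The times did not overlap for 3 genes in invading cells, Hprt and Umps above and Aprt below, beside 23.6% of all genes (13.3% above and 10.3% below). In non-invading cells they did not overlap for Hprt, above, and Aprt, below, beside 20.0% (12.2% above and 7.80% below). After quantile normalisation was applied again the counts were 2 higher and 2 lower in invading cells and 1 higher and 4 lower in non-invading cells. Adssl1, Adsl, Ampd2 and Ampd3 did not pass between the times in either fraction, with log2 differences from -0.22 to 0.21.

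**Figure D3:**
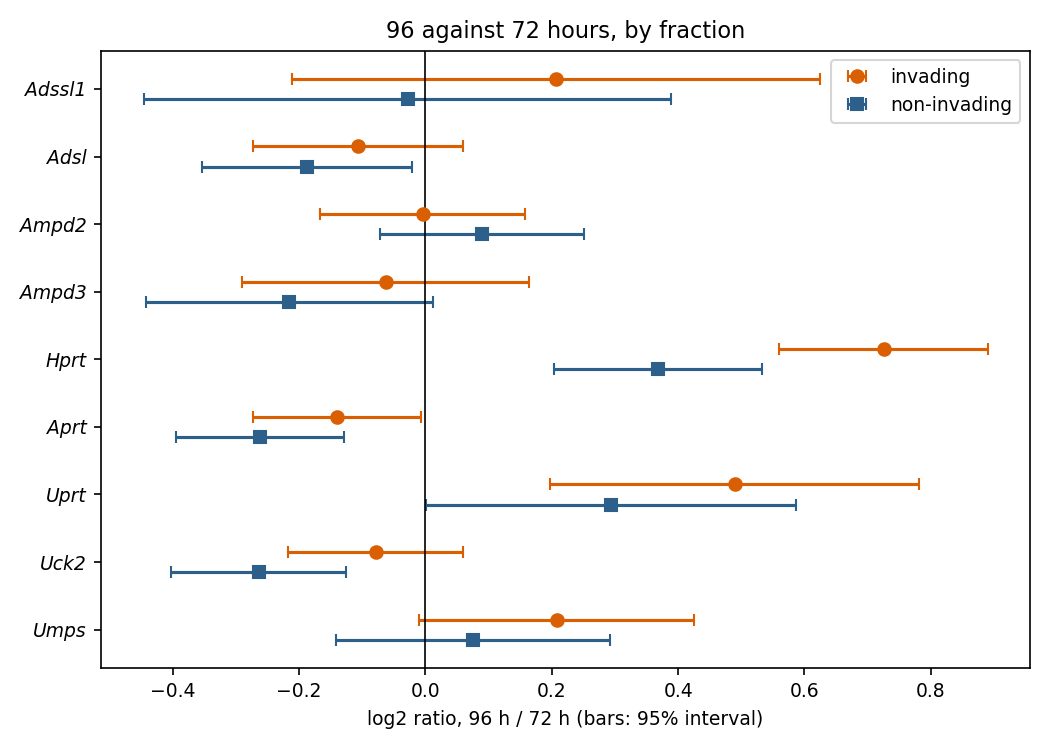
Log2 ratio of 96 to 72 hours in invading cells (circles) and non-invading cells (squares) for each gene, with 95% intervals from the fit over all 18 samples. Each gene is shown by its brightest probe set. Among these Hprt lies furthest from 0 in both fractions, at 0.73 and 0.37, while the intervals of Adssl1 span 0 in both.

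The other measured genes of the AMP branch, Adss and Ampd1, did not pass as higher in invading cells at either time. Adss, which catalyses the same reaction as Adssl1, had log2 signals at 72 hours of 9.67, 9.79, 9.90 and 9.97 in invading samples, against 10.32, 10.37, 10.25 and 10.51 in non-invading samples. All invading samples lay below the others, and Adss fell by 0.53 (standard error 0.0875, adjusted p = 0.0039), opposite in sign to Adssl1. At 96 hours the signals were 10.22, 10.36, 10.25, 10.33 and 10.14 in invading samples, against 10.22, 10.25, 10.25, 10.38 and 10.40 in non-invading samples. The ranges overlapped and the difference was -0.04 (95% interval -0.171 to 0.0963, adjusted p = 0.70). In invading cells Adss rose by 0.43 at 96 hours relative to 72 hours (standard error 0.0718, adjusted p = 0.00026), and the change of its ratio between the times missed the threshold (0.50, adjusted p = 0.14). Ampd1, the deaminase of skeletal muscle, was dim, with a mean log2 signal of 5.76, and its ratios of 0.08 and -0.00 did not pass (adjusted p = 0.61 and 0.98). Of the 5 genes of the AMP branch besides Adssl1, 3 thus passed as higher and 1 as lower at 72 hours, beside 13.0% and 13.5% of all genes. At 96 hours 3 passed, all higher, beside 16.7% of all genes.

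The neighbours of Uprt in pyrimidine salvage are given by their own values. Their sizes are not compared with that of Uprt, which was chosen for its ratio. Uck1, a second uridine-cytidine kinase, rose by 0.28 at 72 hours (standard error 0.0993, adjusted p = 0.084) and had a difference of 0.20 at 96 hours (adjusted p = 0.12). Uckl1, a protein with a uridine kinase domain, rose by 0.26 at 72 hours (adjusted p = 0.053), with 0.03 at 96 hours (adjusted p = 0.81). Upp1, uridine phosphorylase, which releases uracil from uridine, had log2 signals at 96 hours of 7.91, 7.49, 7.46, 7.92 and 7.42 in invading samples, against 6.95, 6.53, 6.84, 7.86 and 6.44 in non-invading samples. The 4th non-invading sample lay far above the other non-invading samples, within the invading range, and Upp1 rose by 0.71 (standard error 0.239, adjusted p = 0.046). At 72 hours Upp1 differed by 0.45 (adjusted p = 0.34). Upp2 was dim, with a mean log2 signal of 4.84 and ratios of 0.02 and 0.02 that did not pass (adjusted p = 0.89 and 0.86). Tk1, the thymidine kinase of dividing cells, did not pass between the fractions (-0.00 and 0.22, adjusted p = 0.99 and 0.14), and fell at 96 hours relative to 72 hours in invading cells by 0.53 (adjusted p = 0.0036) and in non-invading cells by 0.75 (adjusted p = 0.00037). Dctd, another pyrimidine salvage gene, fell by 0.34 at 72 hours (adjusted p = 0.046), without overlap of the fractions. At 96 hours it fell by 0.19 (adjusted p = 0.090). Of 9 measured pyrimidine salvage genes besides Uprt, 3 passed as higher and 2 as lower at 72 hours, against 1 in each direction at 96 hours. The 2 lower at 72 hours were Dctd and the brighter probe set of Uck2, whose second probe set passed as higher. Over all genes 26.5% passed at 72 hours and 31.4% at 96 hours.

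PRPP is made by Prps1 and Prps2, of which Prps1 fell by 0.35 at 72 hours (adjusted p = 0.020) and by 0.16 at 96 hours (adjusted p = 0.083). Prps2 fell by 0.30 at 72 hours (adjusted p = 0.037) but not at 96 hours, and Prpsap1, an associated protein, fell by 0.22 at 96 hours (adjusted p = 0.0071). In all, 0 of 4 PRPP genes were higher and 2 lower at each time, beside 13.5% of all genes lower at 72 hours and 14.7% at 96 hours. On the way to IMP, Paics, which acts in the middle of the pathway, fell by 0.44 at 72 hours (adjusted p = 0.0036) and by 0.21 at 96 hours (adjusted p = 0.010). Atic, the last enzyme before IMP, rose by 0.29 at 72 hours (adjusted p = 0.039) and by 0.33 at 96 hours (adjusted p = 0.0022). Ppat, which commits PRPP to purines, rose by 0.24 at 96 hours (adjusted p = 0.041). Of 6 such genes, which include Adsl, 2 passed as higher and 1 as lower at 72 hours, while 3 were higher and again 1 lower at 96 hours, beside 26.5% of all genes passing at 72 hours and 31.4% at 96 hours.

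In de novo pyrimidine synthesis Ctps, which makes CTP from UTP, fell by 0.43 at 72 hours (adjusted p = 0.0077) and by 0.29 at 96 hours (adjusted p = 0.053). Cad, which holds the first steps of the pathway, rose by 0.20 at 96 hours (adjusted p = 0.060), with 0.18 at 72 hours (adjusted p = 0.33). Dhodh, the mitochondrial step before Umps, did not pass at either time (-0.01 and 0.04, adjusted p = 0.95 and 0.74). In the GMP branch only Impdh1 and Gmps were measured, and Gmps rose by 0.16 at 96 hours (adjusted p = 0.043). At 72 hours Gmps differed by -0.17 and did not pass (adjusted p = 0.11), although all invading samples lay below all non-invading samples. Of 8 purine salvage genes, Hprt and Aprt included, 0 were higher and 2 lower at 72 hours, a share near the 26.5% of all genes that passed. At 96 hours 2 were higher and 1 lower, beside 31.4% of all genes. Mtap, which recovers adenine from methylthioadenosine, fell by 0.23 at 72 hours (adjusted p = 0.026). Ada, adenosine deaminase, rose by 0.25 at 96 hours (adjusted p = 0.017).

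Of 7 genes of deoxynucleotide supply 3 passed as lower at 72 hours, beside 13.5% of all genes, and 1 at 96 hours, beside 14.7%. Samhd1 was lower at both times, by 0.21 at 72 hours (adjusted p = 0.086) and by 0.12 at 96 hours (adjusted p = 0.085). Rrm2 and Rrm1, the subunits of ribonucleotide reductase, fell by 0.54 (adjusted p = 0.028) and 0.29 (adjusted p = 0.035), but differed by 0.07 and 0.04 at 96 hours, where neither passed. Since these genes are tied to DNA replication, proliferation genes were examined beside them. Of 14 proliferation genes 5 passed as lower and 0 as higher at 72 hours, led by Bub1 (-1.07) and Ccna2 (-0.77). Over all genes 13.5% were lower and 13.0% higher at this time. At 96 hours 1 of the 14 was lower and 6 were higher, among them Mcm3 (0.50), beside 14.7% and 16.7% of all genes. Their summed linear signal ran from 17574 to 20088 in invading samples and from 20050 to 23909 in non-invading samples at 72 hours, and from 19548 to 22639 in invading samples and from 17316 to 24064 in non-invading samples at 96 hours. The part of proliferation in the ratios of the nucleotide genes was not tested.

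Among nucleotide kinases 3 of 13 genes were higher and 1 lower at 72 hours, beside 13.0% and 13.5% of all genes. At 96 hours 5 were higher and 1 lower, beside 16.7% and 14.7%. Nme4, a mitochondrial nucleoside diphosphate kinase, rose by 0.52 at 72 hours (adjusted p = 0.0052) and by 0.32 at 96 hours (adjusted p = 0.017). Nme2 rose by 0.25 and 0.36 (adjusted p = 0.046 and 0.0010). Breakdown genes included Xdh, the oxidase that makes uric acid, which rose by 0.58 at 72 hours (standard error 0.0987, adjusted p = 0.0045) and by 0.72 at 96 hours (standard error 0.088, adjusted p = 0.00023). Gda, guanine deaminase, rose at 72 hours by 0.43 (adjusted p = 0.012), and Nt5c3, a pyrimidine 5′-nucleotidase, fell by 0.39 and 0.32 (adjusted p = 0.031 and 0.0068). Of 12 breakdown genes 2 were higher and 1 lower at 72 hours, a share near the 26.5% of all genes that passed. At 96 hours 5 were higher and 1 lower, beside 16.7% and 14.7% of all genes. Uox was among those higher at 96 hours, at 0.23, but its mean log2 signal of 4.74 was near the dim end of the array.

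Over all 63 measured pathway genes other than the 9, 9 were higher and 12 lower at 72 hours, beside 13.0% and 13.5% of all genes, while at 96 hours 16 were higher and 9 lower, beside 16.7% and 14.7%. Their median log2 ratio was 0.02 at 72 hours and 0.07 at 96 hours. The split moved with the scaling: quantile normalisation applied again gave 13 higher and 11 lower genes at 72 hours, with 26 higher and 9 lower genes at 96 hours, and centring gave 13 and 6, and 35 and 1. In the test of whether the ratio changed between the times, 0 of the 63 passed with limma.

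**Figure D4:**
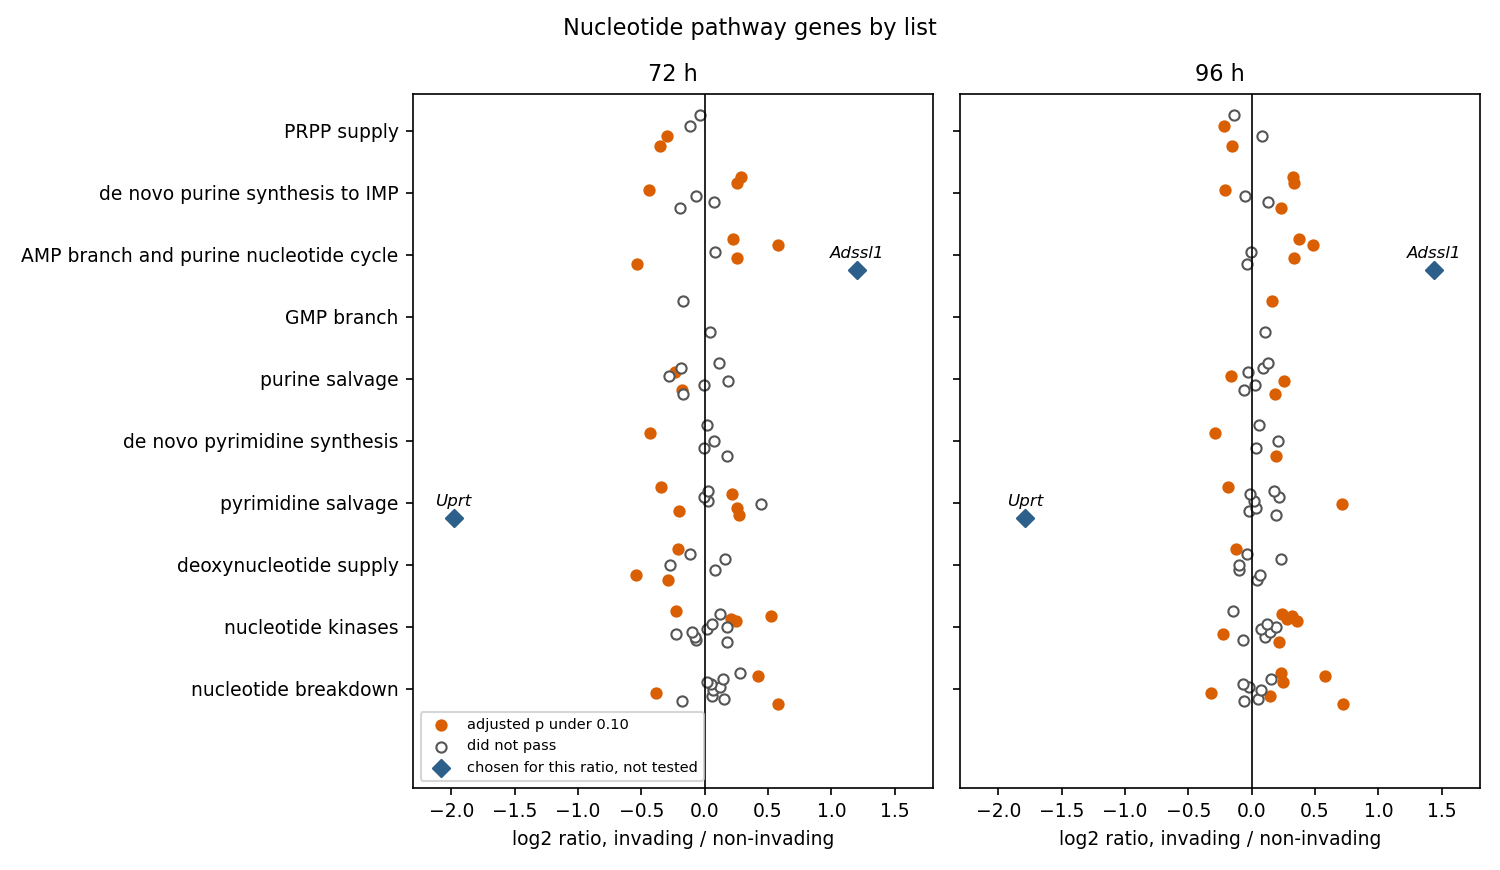
Log2 ratio between the fractions, invading over non-invading, for the measured genes of 10 nucleotide lists at 72 hours (left) and 96 hours (right). Filled circles passed at an adjusted p under 0.10, open circles did not, and diamonds are Adssl1 and Uprt, chosen for this ratio and not tested. Apart from the diamonds, Xdh at 0.72 and Upp1 at 0.71 have the highest ratios at 96 hours.

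The genes with the pattern most like that of Adssl1 over the 18 samples, among 11122 genes with a mean linear signal above 100, were Ddx41 (Pearson's r 0.972), Myo1d (0.968), St3gal4 (0.963), Mfsd11 (0.962) and Pde1b (0.957). For Uprt they were Tmem47 (0.984), Tmem184c (0.984), Sike1 (0.984), Cklf (0.982) and Tead1 (0.981). All of these genes differ between the same 4 groups of samples. With the group means removed they were 0.697 to 0.891 for the genes like Adssl1 and 0.579 to 0.907 for those like Uprt. Adssl1 and Uprt correlated at -0.853 over the 18 samples and at 0.11 with the group means removed. For Adssl1 and Ampd2 the values were 0.919 and 0.508. With Adsl they were 0.763 and 0.401, and with Ampd3 0.546 and -0.247.

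Because Adssl1 is known from striated muscle, 10 muscle markers were examined beside it. None passed at 72 hours, beside 26.5% of all genes. In invading cells 4 were higher at 96 hours, beside 16.7% of all genes, namely Acta1 (0.27), Myog (0.24), Actn2 (0.21) and Ckmt2 (0.15). Their summed linear signal ran from 951 to 1053 in invading and from 907 to 1002 in non-invading samples at 72 hours, and from 909 to 958 in invading and from 816 to 921 in non-invading samples at 96 hours. Between 3 and 5 of the 10 had a mean linear signal above 100 in a group, and Myod1, Myog, Actn2, Myl1, Ckmt2 and Ampd1, which is also in the AMP branch, did not reach it over all samples, so that 3 of the 4 markers higher at 96 hours were dim. Of 6 epithelial markers 1 was higher at 72 hours and 3 at 96 hours, and their summed linear signal was 459 to 566 in invading and 388 to 468 in non-invading samples at 72 hours, and 433 to 478 in invading and 359 to 435 in non-invading samples at 96 hours. Among them Krt8 was higher in the invading fraction at 72 hours (0.53, adjusted p = 0.021) and 96 hours (0.32, adjusted p = 0.027), and among 5 leukocyte markers only Cd68 was higher, at 96 hours (0.56, adjusted p = 0.0033). No endothelial marker of 5 passed. Of the 10 fibroblast markers 1 was higher and 4 lower at 72 hours, with 4 lower at 96 hours. Beside these marker counts stand 13.0% of all genes higher and 13.5% lower at 72 hours, and 16.7% and 14.7% at 96 hours. The part of these markers in the ratio of Adssl1 was not tested.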

How the data were processed

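Total RNA of invading and non-invading MLg 2908 fibroblasts was hybridised to Affymetrix Mouse Gene 1.0 ST arrays. The authors deposited log2 values per probe set, which they had background corrected, sketch-quantile normalised and summarised with RMA; the submitters' processing notes name Expression Console version 1.2. The genome build is not given in the sources used here. The 35556 probe sets ranged from 2.94 to 14.7. Symbols came from the array annotation: 21789 probe sets had 1 symbol, 1621 had several and 12146 had none. No further transformation was applied.

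Fractions were compared per time with limma 3.58.1 in R 4.3.3, without covariates. Times, and the difference between ratios, were compared in 1 fit over all 18 samples. P-values measure the spread between samples called biological replicates in the labels. The procedure was tested on simulated data. The genes and lists were chosen with earlier results of these data known. The text names every member, in each list the pathway genes that passed with the largest ratios, set neighbours of Adssl1 and Uprt, and the 5 genes most like each. Alternatives covered scaling, filters, variance model, threshold, replicate block, probe set and leaving out each sample.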

Additional observations from a re-analysis of the deposited data

Results flagged for a closer look

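Of 36 groups of 4 or 5 samples examined, 3 held a sample that stood apart from the rest of its group, where chance gives about 1 in 20. Aprt in the 2nd non-invading sample at 72 hours had a log2 signal of 8.94, the next highest being 8.83. Uprt in the 4th invading sample at 72 hours had 8.33, the next lowest being 8.89, and without this sample the log2 ratio of Uprt was -1.83. Umps in the 4th non-invading sample at 96 hours had 9.08, the next highest being 8.70.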

How the results depend on the processing

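The ratios of Adssl1 stayed between 1.11 and 1.32 at 72 hours and between 1.31 and 1.58 at 96 hours when each sample was left out in turn, and those of Uprt between -2.05 and -1.83 and between -1.85 and -1.71. The second probe set of Uprt gave -1.54 and -1.52. Of the 7 other genes, 5 passed at 72 hours, but 3 with centring, 1 at an adjusted p under 0.05, 2 with the replicate block and 1 to 3 with any 1 of the 8 samples left out. Adsl passed only without the 3rd invading or the 1st or 2nd non-invading sample, Ampd3 only without the 3rd or 4th invading or the 1st non-invading sample, Aprt only without the 4th invading and Uck2 only without the 4th non-invading sample. At 96 hours the count of 4 was 3 to 5, and Hprt did not pass without the 2nd invading (adjusted p = 0.104) or the 3rd non-invading sample (adjusted p = 0.105). Umps at 96 hours passed under 6 alternatives and without the 4th non-invading sample. The 21 pathway genes at 72 hours became 13 to 23, with 13 without the 3rd non-invading sample, and 17 with the replicate block. The 25 at 96 hours became 16 at an adjusted p under 0.05, 16 to 24 with samples left out, with 16 without the 2nd or the 5th non-invading sample, and 29 with the replicate block. Between the times, 2 to 4 genes passed in invading cells (4 without the 4th non-invading sample of 96 hours) and 3 to 4 in non-invading cells, against 4 and 5 after quantile normalisation was applied again. The replicate block changed no other count by over 1.5 times. Samples of both fractions with the same replicate number had correlations of -0.07 to 0.09 (72 hours) and 0.05 to 0.17 (96 hours) after group means were removed, 1 of 4 and 4 of 5 being highest with their own number, and the numbers were not taken as pairs. The legend of the study on growth factor receptors names a paired t-test beside array values, without saying which samples form a pair. The main fits treat the fractions as unpaired. Signs turned for Uck2 with its second probe set (0.25 at 72 hours and 0.17 at 96 hours), for Uck2 and Aprt at 96 hours with centring (0.10 and 0.059), for Umps at 72 hours without the 4th non-invading sample (-0.0040, range -0.0040 to 0.16 over all samples left out) and for Uck2 at 96 hours without the 4th non-invading sample (0.022, range -0.049 to 0.022). The cause of these changes was not tested.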

Other observations

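One-carbon metabolism supplies the formyl and methyl groups of purines and thymidylate. Of its 7 measured genes 1 passed as lower in invading cells and 0 as higher at 72 hours, beside 13.5% and 13.0% of all genes. At 96 hours 4 were higher and 1 lower, beside 16.7% and 14.7%. Those higher at 96 hours were Shmt1 (log2 ratio 0.30), Shmt2 (0.30), Aldh1l1 (0.30) and Mthfd1l (0.28), and Aldh1l2, a mitochondrial enzyme that uses 10-formyltetrahydrofolate, fell at both times (-0.32 and -0.34, adjusted p = 0.051 and 0.093). Of 8 transporters of nucleosides and nucleobases, none passed as higher, 2 passed as lower at 72 hours and 1 at 96 hours. Over all genes 13.5% passed as lower at 72 hours and 14.7% at 96 hours. Slc29a3, a nucleoside transporter of lysosomes, fell by 0.36 at 72 hours (adjusted p = 0.0083) and by 0.29 at 96 hours (adjusted p = 0.0026), and the fractions did not overlap at either time.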
